A study of Mus musculus with 5 samples.

Results

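A set of 10 genes of nitric oxide and arginine metabolism were followed in cultured mesenchymal stem cells of mouse bone marrow (BMSCs), the plastic-adherent stroma of the marrow, after exposure to negative pressure. The members were taken by symbol from the deposited gene table, which held 55401 gene IDs, and all 10 of 10 symbols were found. They were Nos2, Nos3, Arg1, Arg2, Ass1, Asl, Gch1, Slc7a1, Slc7a2 and Ddah1. Wild-type (WT) BMSCs were seeded in T25 plates and grown for 72 h. Continuous negative pressure (NP), drawn by a vacuum pump, was held for 48 h at -80, -120, -160 or -200 mmHg. The control was WT BMSCs at 0 mmHg. The sources used here give no strain, sex, age or number of animals. There was 1 library per condition, 5 in all; nothing below has a replicate check, and no p-value is given.

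Nitric oxide synthases make nitric oxide and citrulline from arginine, with tetrahydrobiopterin as a cofactor, while arginases split the same arginine into ornithine and urea. Citrulline can be turned back into arginine by argininosuccinate synthase (Ass1) and argininosuccinate lyase (Asl), and arginine also enters the cell through cationic amino acid transporters. In stromal cells and macrophages the inducible synthase Nos2 is known to respond to interferon and inflammatory cytokines.

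Levels are FPKM (fragments counted on a gene per kilobase of its exons, relative to the depth of the library), which allows levels of different genes to be compared per length. The FPKM values gave back whole reads, and the library totals lay between 16600622 and 18398911 reads. Intervals are exact at 95% and cover the counting of reads only. Differences were taken between log2(FPKM + 1) values, a scale that shrinks the changes of low genes. The size rule asked for a difference of 1 or more and for 1 FPKM or more averaged over the 5 libraries. A difference of 1 is 2-fold in FPKM + 1 and more than 2-fold in FPKM. Counts by this rule are therefore not counts of all 2-fold changes. The control library stands apart in a way that runs with every comparison below: 4 Y-linked genes had 2493 reads together in the control and 0 in each pressure library. The origin of the cells and the pressure therefore cannot be told apart, and "rose" and "fell" refer to that single control library. Where the control lay outside the range of the pressure libraries, this is description only. The share of all genes for which that holds was not computed. The median of all 12113 genes that averaged 1 FPKM or more was itself 0.14 to 0.16 above the control.

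Nos2 and Ass1 fell at all 4 pressures, the arginine transporter genes Slc7a1 and Slc7a2 stood higher in every pressure library than in the control, and Nos3 and Arg1 were close to the counting floor throughout. Of the 10 members, 2 were lower at all 4 pressures by the size rule and 0 were higher at all 4. The level limit was met by 8 of the 10, all but Nos3 and Arg1, so only these 8 could be called. Nos2, Ass1 and Arg2 met it through the control, since their pressure libraries lay at or below 1.03, 0.473 and 0.947 FPKM. For such genes the limit itself favours a lower call. Dropping the limit cannot undo the call of a gene that met it, so it is no check on Nos2 and Ass1. It only widens the background to all 55401 genes, of which 1.20% were lower at all 4 pressures. Over all 12113 genes that met the level limit the same rule called 4.46% lower and 6.49% higher. At -80 mmHg 2 members were higher (background 10.7%) and 2 lower (6.89%). At -120 mmHg 1 was higher (8.85%) and 3 lower (6.45%). At -160 mmHg 1 was higher (9.59%) and 2 lower (6.03%), and at -200 mmHg 0 were higher (9.10%) and 2 lower (6.38%). In bulk samples fewer cells of a type and less RNA per cell cannot be told apart. The median log2 difference over all 10 members, averaged over the 4 pressures, was 0.03. Its middle values are those of Nos3 (0.01) and Arg1 (0.05), both near the counting floor, so it is not like for like with the 0.15 over genes that met the level limit.

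**Figure D1:**
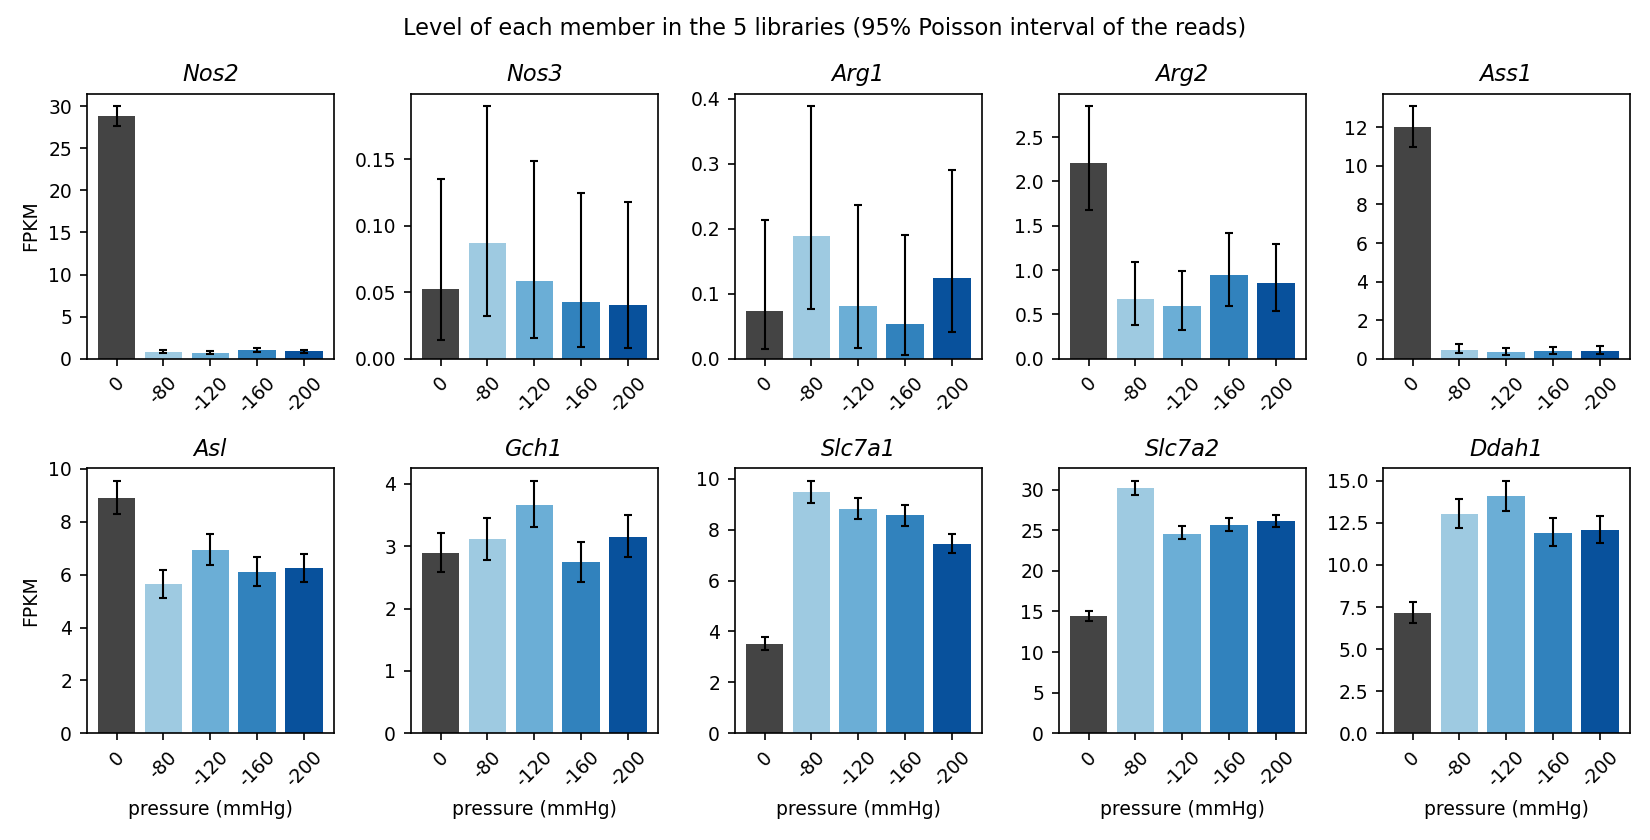
Level in FPKM (y axis, linear, a scale of its own in each panel) of the 10 members by pressure in mmHg (x axis), 1 bar per library, with bars of the exact 95% Poisson interval of the reads. Nos2 and Ass1 are high in the control alone, at 28.8 and 12.0 FPKM, and all 4 pressure libraries lie at or below 1.03 and 0.473 FPKM.

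Nos2, the inducible nitric oxide synthase, lies at chr11:78920787-78960254 on the plus strand (GRCm38). It had a level of 28.8 FPKM without pressure, and of 0.839, 0.692, 1.03 and 0.861 FPKM at -80, -120, -160 and -200 mmHg, from 2352, 62, 51, 78 and 69 reads. The control was the high library. The log2 difference lay between -4.14 and -3.87. Per library total, the reads of the control were 34.3 times those at -80 mmHg (interval 26.7 to 44.9) and 41.6 times those at -120 mmHg (31.5 to 56.1). They were 27.9 times those at -160 mmHg (22.2 to 35.4) and 33.5 times those at -200 mmHg (26.3 to 43.1).

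Nos3, the endothelial synthase (chr5:24364810-24384474, plus strand), had 4 reads in the control and 6, 4, 3 and 3 reads at -80, -120, -160 and -200 mmHg. Its highest level was 0.0873 FPKM, and the control lay inside the range of the pressure libraries. Its exons share 1040 bases with Gm15587 and 294 bases with Atg9b on the other strand, and the sources used here do not say if strand was used in counting. A change of Nos3 was not detectable: the ratio to the control at -80 mmHg was 1.66 with an interval of 0.393 to 7.99. The neuronal synthase Nos1 was at or below 0.0105 FPKM in every library, so by level Nos2 was the synthase gene with most transcript in all 5 libraries, at 0.692 FPKM or more.

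The arginase genes, whose products compete with nitric oxide synthases for arginine, were low in all libraries. Arg1, the cytosolic arginase of liver and of some macrophages (chr10:24915221-24927484, minus strand), had 3 reads in the control and 7, 3, 2 and 5 reads at -80, -120, -160 and -200 mmHg. The Arg1 control lay inside the range of the pressure libraries, and a change was not detectable: the ratio to the control at -80 mmHg was 2.58 with an interval of 0.589 to 15.5. Arg2, the mitochondrial arginase (chr12:79130777-79156301, plus strand), had a level of 2.21 FPKM without pressure, and of 0.673, 0.591, 0.947 and 0.853 FPKM at -80, -120, -160 and -200 mmHg. Every pressure library of Arg2 was below the control, by -1.01 to -0.72 on the log2 scale, and only -120 mmHg passed the size rule. The reads behind this were few, 58 in the control and 14 to 23 under pressure, and the control over pressure ratio ranged from 2.33 (interval 1.42 to 3.96) at -160 mmHg to 3.74 (2.06 to 7.26) at -120 mmHg. With a pseudocount of 5 Arg2 passed the rule at no pressure (-0.37 to -0.28). Arg2 lay just inside the limit of the size rule with a mean of 1.05 FPKM, and Arg1 outside it with 0.104 FPKM. The exons of Arg2 share 285 bases with Vti1b on the other strand, a gene at 44.3 FPKM without pressure and at most 34.6 FPKM with it, and its part in the Arg2 values was not tested. With both genes lower under pressure, the level of Nos2 over that of Arg2 was 13.0 in the control and 1.25, 1.17, 1.09 and 1.01 at -80, -120, -160 and -200 mmHg. The order of these ratios over the pressures is not to be read as a trend. Reads at -200 over those at -80 mmHg were 1.03 (interval 0.717 to 1.47) for Nos2 and 1.27 (0.636 to 2.58) for Arg2.

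Ass1, which joins citrulline and aspartate in the step that limits the rebuilding of arginine (chr2:31470207-31520672, plus strand), had a level of 12.0 FPKM without pressure, and of 0.473, 0.324, 0.390 and 0.413 FPKM at -80, -120, -160 and -200 mmHg. The control had 533 reads and the pressure libraries 13 to 19. The log2 difference lay between -3.30 and -3.14. The reads of the control were 25.4 times those at -80 mmHg (interval 16.1 to 42.5) and 37.0 times those at -120 mmHg (21.4 to 69.9). For Ass1 the ratios at -160 and -200 mmHg were 30.8 (18.8 to 54.3) and 29.1 (18.2 to 49.4). Asl, which releases arginine from argininosuccinate (chr5:130011258-130029247, minus strand), stood at 8.91 FPKM in the control and 5.64, 6.92, 6.10 and 6.24 FPKM at -80, -120, -160 and -200 mmHg. All 4 pressure libraries of Asl were below the control, by -0.58 to -0.32, and did not pass the size rule. The control over pressure ratio of Asl reads ranged from 1.29 (interval 1.15 to 1.44) at -120 mmHg to 1.58 (1.41 to 1.78) at -80 mmHg. Of these paired enzymes, then, the level of Ass1 was 1.35 times that of Asl in the control and 0.0469 to 0.0839 times under pressure.

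The sequence upstream of Ass1 is shown with that of Slc7a1, since these are the 2 members past the size rule at 3 or more pressures for which the RefSeq promoter table (GRCm38.p6) has an entry. That table matched 4 of the 10 members, with Gch1 and Ddah1 as the others. Each line holds the 250 bases before the start annotated in RefSeq, 5′ to 3′ on the gene's strand. The window of Ass1 is at chr2:31470020-31470269 (plus). Those of both starts of Slc7a1 are at chr5:148399905-148400154 and chr5:148392816-148393065 (both minus). Capitals mark matches to 7 motifs searched on both strands: the core promoter motif TATAAA, the NF-Y motif CCAAT, the GC box GGGCGG, the E-box CACGTG, the STAT motif TTCNNNGAA, the cAMP response element TGACGTCA (CRE) and the ATF4 motif TGATGNAAT.
Ass1: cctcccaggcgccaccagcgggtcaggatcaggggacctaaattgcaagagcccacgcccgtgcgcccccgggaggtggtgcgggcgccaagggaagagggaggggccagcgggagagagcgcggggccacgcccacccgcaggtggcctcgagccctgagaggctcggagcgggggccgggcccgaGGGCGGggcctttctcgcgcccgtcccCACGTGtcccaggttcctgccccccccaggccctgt
Slc7a1 upstream start: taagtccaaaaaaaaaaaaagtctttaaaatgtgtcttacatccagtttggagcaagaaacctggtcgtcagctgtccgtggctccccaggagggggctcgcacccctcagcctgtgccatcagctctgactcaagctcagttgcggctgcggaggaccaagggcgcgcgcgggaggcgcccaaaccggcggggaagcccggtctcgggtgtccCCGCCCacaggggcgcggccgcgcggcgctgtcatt
Slc7a1 downstream start: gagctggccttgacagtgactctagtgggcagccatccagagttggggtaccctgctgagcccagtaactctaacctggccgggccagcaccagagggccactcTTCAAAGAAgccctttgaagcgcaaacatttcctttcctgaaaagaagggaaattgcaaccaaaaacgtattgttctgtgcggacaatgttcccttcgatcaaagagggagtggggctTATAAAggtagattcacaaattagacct

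The Ass1 window holds a GC box from -63 to -58 and an E-box from -36 to -31, counted back from the RefSeq start. By the gene coordinates given above Ass1 begins earlier, at chr2:31470207. The end of the window with both motifs thus lies inside the gene as placed there, and so does the end of the Ddah1 window. A GC box is in 32.7% of all 32851 windows and an E-box in 6.02%. The upstream window of Slc7a1 holds a GC box on the other strand (-36 to -31), and its downstream window the letters TATAAA (-28 to -23, in 12.4% of all windows) and a STAT match (-146 to -138, in 7.02%). The window of Gch1 holds a CCAAT match (in 33.8% of all windows), 2 GC boxes and TATAAA on the other strand, and the Ddah1 window holds none of the 7 motifs. CRE and ATF4 matches, in 1.55% and 0.816% of all windows, were in none of the members' windows. The Ass1 window was 75.6% G and C, beside a median of 52.4% over all windows. A match describes letters and not a bound site, and which start is used in these cells was not tested.

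Gch1, GTP cyclohydrolase, catalyses the first step of tetrahydrobiopterin synthesis (chr14:47153895-47189413, minus strand). It had a level of 2.89 FPKM without pressure, and of 3.11, 3.66, 2.74 and 3.15 FPKM at -80, -120, -160 and -200 mmHg. The control lay inside the range of the pressure libraries, and Gch1 passed the size rule at no pressure. Its ratio to the control was 1.08 (interval 0.920 to 1.26) at -80 mmHg, 0.948 (0.807 to 1.11) at -160 mmHg and 1.09 (0.938 to 1.27) at -200 mmHg. At -120 mmHg it was 1.27 (1.09 to 1.47). The direction of Gch1 also depended on scaling: its mean difference of 0.10 became -0.01 after scaling by a trimmed mean of log ratios and -0.10 under quantile normalization.

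The arginine transporters stood on the other side of the control. Slc7a1 encodes CAT-1, the widely expressed cationic amino acid transporter (chr5:148327410-148399904, minus strand). It had a level of 3.51 FPKM without pressure, and of 9.48, 8.82, 8.56 and 7.44 FPKM at -80, -120, -160 and -200 mmHg. The control was the low library. Slc7a1 rose at -80, -120 and -160 mmHg (log2 difference 1.22, 1.12 and 1.08), and at -200 mmHg the difference was 0.90, under the size rule. In reads per library total the ratio to the control was 2.70 (interval 2.48 to 2.95), 2.51 (2.31 to 2.74), 2.44 (2.24 to 2.66) and 2.12 (1.94 to 2.32) in the same order of pressures. With a pseudocount of 5 Slc7a1 passed the rule at no pressure (0.55 to 0.77), and under quantile normalization its differences were 0.72 to 1.02.

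Slc7a2 encodes CAT-2, a transporter of the same family with an isoform that is induced together with Nos2 in activated macrophages (chr8:40862396-40922308, plus strand). It had a level of 14.4 FPKM without pressure, and of 30.2, 24.6, 25.6 and 26.1 FPKM at -80, -120, -160 and -200 mmHg. Here too the control was lowest. Slc7a2 rose at -80 mmHg (log2 difference 1.02), while the other pressures differed by 0.74 to 0.82, under the size rule. The ratio of Slc7a2 reads to the control was 1.82 (interval 1.73 to 1.91) at -200 mmHg and lowest at -120 mmHg, at 1.71 (1.63 to 1.80). Slc7a2 thus differed from the control in the other direction than Nos2 in each of the 4 pressure libraries. Exons of Slc7a2 share 635 bases with Gm26584 on the other strand, which was not analysed here. With a pseudocount of 5 or the trimmed mean Slc7a2 passed the rule at no pressure (at most 0.86 and 0.87). Together Slc7a1 and Slc7a2 made 17.9 FPKM without pressure against 33.5 to 39.7 FPKM with it.

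Ddah1 encodes an enzyme that breaks down asymmetric dimethylarginine, an endogenous inhibitor of nitric oxide synthases (chr3:145758675-145894277, plus strand). It had a level of 7.15 FPKM without pressure, and of 13.0, 14.1, 11.9 and 12.1 FPKM at -80, -120, -160 and -200 mmHg. The control was the low library, the log2 difference was 0.66 to 0.89, and Ddah1 passed the size rule at no pressure. The ratio of reads was largest at -120 mmHg, at 1.97 (interval 1.77 to 2.20), and smallest at -160 mmHg, at 1.67 (1.49 to 1.86).

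**Figure D2:**
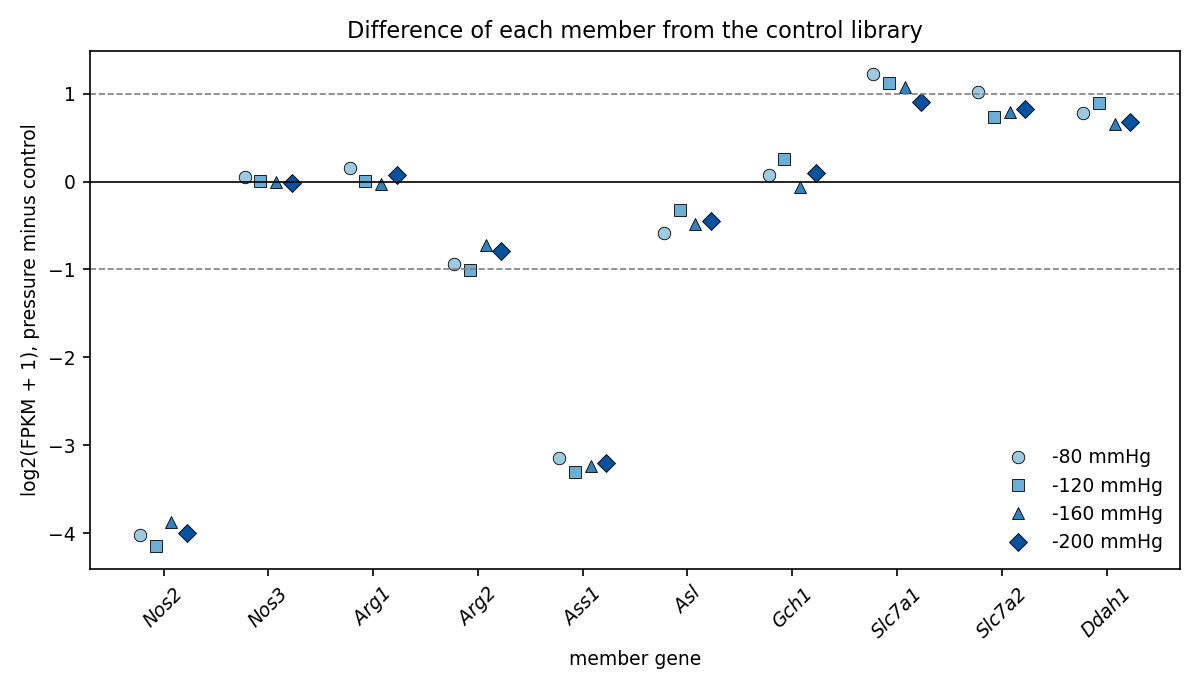
Difference from the control on the log2(FPKM + 1) scale (y axis) for each member (x axis), 1 point per pressure library, with dashed lines at the size rule of 1 in either direction. Nos2 and Ass1 lie between -4.14 and -3.14, and Slc7a1 straddles the upper line with 0.90 to 1.22. The 4 pressures of each gene lie close together on this scale, which shrinks the changes of low genes.

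The order of the members by level changed with the condition. In the control it ran from Nos2 through Slc7a2, Ass1, Asl, Ddah1, Slc7a1, Gch1 and Arg2 to Arg1 and Nos3. Among these the intervals of Gch1 (2.58 to 3.21 FPKM) and Arg2 (1.68 to 2.85 FPKM) overlapped, and so did those of Arg1 and Nos3. In each pressure library the order was Slc7a2, Ddah1, Slc7a1, Asl, Gch1, Nos2, Arg2, Ass1, Arg1 and Nos3. Nos2 thus went from the first place to the sixth, and its interval there overlapped that of Arg2 in all 4 pressure libraries. Under pressure the intervals of Arg2 and Ass1, and of Arg1 and Nos3, also overlapped in all 4 libraries, and those of Ass1 and Arg1 in all but -160 mmHg. Overlap of intervals describes counting error and is no test of the order.

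The 4 pressure libraries were also compared with one another. Of the 8 members that met the level limit, 0 differed by at least 1 on the log2(FPKM + 1) scale between the highest and lowest pressure library. Over all 12113 genes the share was 2.26%, and 0 of 8 is near it. The count was also 0 over all 10 members without the limit. On that scale, which shrinks the changes of low genes, the widest spread was that of Gch1, at 0.32. As plain FPKM the highest pressure library was 1.34 times the lowest for Gch1. The same ratio was 1.60 for Arg2, 1.49 for Nos2 and 1.46 for Ass1. For Arg1 and Nos3 it was 3.58 and 2.17, from few reads. Between the strongest and the weakest pressure the reads of Slc7a1 per library total at -200 mmHg were 0.785 times those at -80 mmHg (interval 0.733 to 0.840), and its level was lower at each step from -80 to -200 mmHg. For Slc7a2 that ratio was 0.865 (0.830 to 0.902), but its lowest pressure library was -120 mmHg. The intervals of the other measured members included 1, among them Nos2 (1.03, 0.717 to 1.47), Ass1 (0.873, 0.432 to 1.76) and Asl (1.11, 0.975 to 1.26).

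**Figure D3:**
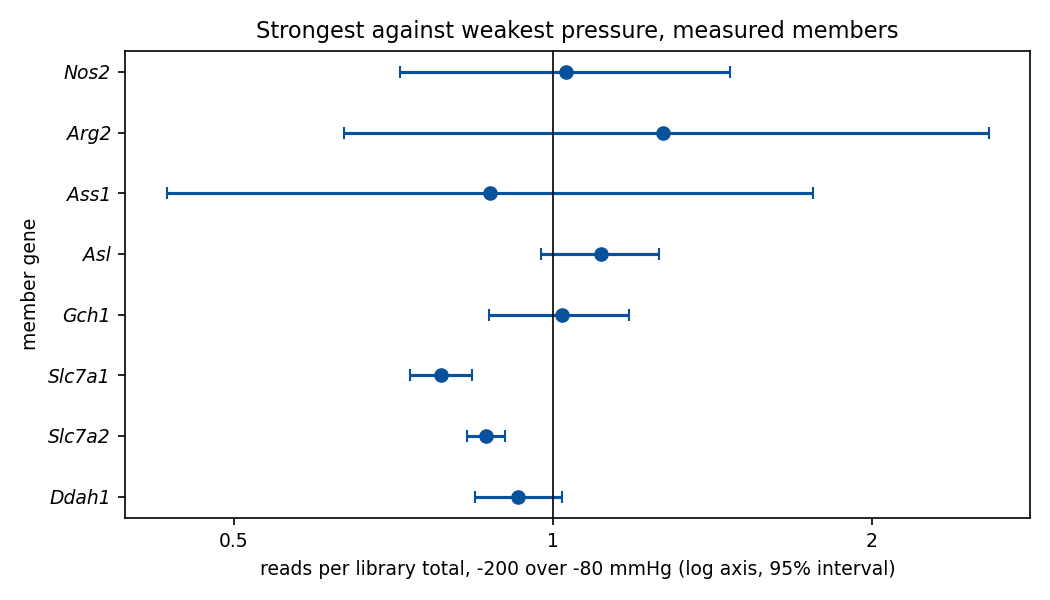
Reads per library total at -200 mmHg over those at -80 mmHg (x axis, log scale) for the 8 members with a mean of at least 1 FPKM (y axis), points with exact 95% intervals of counting error. Slc7a1 at 0.785 and Slc7a2 at 0.865 lie below 1 with their whole interval, and the other 6 intervals include 1.

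The other genes of the pathway were taken from 10 lists of 112 genes, of which 86 averaged 1 FPKM or more. Higher at all 4 pressures were 5 of the 86 and lower were 5, while 69 passed the size rule at no pressure and 7 passed it at some. Their median log2 difference was -0.01, beside 0.15 over all genes tested. Both counts are near the background given above. Of the 10 genes, Slc7a3, Il4ra, Cav1, Gchfr and Tlr2 passed at all 4 pressures under each of 8 alternatives. Aldh18a1, Tlr4 and Hif1a did not with a pseudocount of 5 or the trimmed mean, Hif1a not with upper-quartile scaling, Tlr4 not under quantile normalization, and Prkg2 not with a pseudocount of 5 or a limit of 5 FPKM.

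In the list of other synthases and synthase partners, 1 of 8 measured genes was lower at all 4 pressures, 0 were higher and the median was -0.51. The lower gene was Cav1 (caveolin), an inhibitory partner of the endothelial synthase, which fell from 141 FPKM to a range of 26.7 to 31.0 FPKM. Hsp90ab1, a chaperone of the synthases and the most abundant gene of the list, stood at 827 FPKM without pressure against 682 to 768 FPKM with it. In the tetrahydrobiopterin list 1 of 6 measured genes was lower, 0 were higher and the median was -0.50. This was Gchfr, the feedback regulator that binds GTP cyclohydrolase, which was also the most abundant gene of the list in the control but not under pressure. It fell from 78.0 FPKM to a range of 13.6 to 18.7 FPKM, so its level was 27.0 times that of Gch1 in the control and 4.38 to 5.36 times under pressure.

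Among arginine transport partners 1 of 5 measured genes was higher, 0 were lower and the median was 0.57. Slc7a3, the third cationic transporter (CAT-3), rose from 2.74 FPKM to a range of 13.2 to 14.1 FPKM, the largest rise in the 10 lists. With it, Slc7a1, Slc7a2 and Slc7a3 together made 20.6 FPKM without pressure against 46.6 to 53.8 FPKM with it. Slc3a2, the heavy chain that carries several amino acid transporters to the membrane, was the most abundant of the list at 71.4 FPKM without pressure against 102 to 111 FPKM with it. Genes of methylarginine formation and removal had 0 of 8 measured members higher and 0 lower, with a median of 0.00. Ddah2, the second dimethylarginine hydrolase and the most abundant of them, stood at 74.5 FPKM without pressure against 73.3 to 80.5 FPKM with it, and its level was 10.4 times that of Ddah1 in the control and 5.62 to 6.24 times under pressure.

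The first steps of the urea cycle were at or near the counting floor. Cps1, the carbamoyl phosphate synthetase of the cycle, had 0 reads in all 5, and Otc, which makes citrulline from ornithine, had 4 control reads and no more than 0.0142 FPKM with pressure. Of the list of urea cycle and creatine genes 4 were measured, 0 were higher and 0 lower, and the median was -0.02. The most abundant in the control was Gamt, of creatine synthesis, at 15.0 FPKM without pressure against 11.9 to 15.6 FPKM with it. In ornithine and polyamine metabolism, downstream of arginase, 1 of 16 measured genes was higher, 0 were lower and the median was 0.21. Aldh18a1, which makes the precursor of proline and ornithine from glutamate, rose from 26.4 FPKM to a range of 56.8 to 61.2 FPKM. Oaz1, an antizyme that limits ornithine decarboxylase and the most abundant gene of the list, stood at 177 FPKM without pressure against 148 to 165 FPKM with it.

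Nitric oxide signals mainly through soluble guanylate cyclase, and transcripts of that enzyme were low or at 0. Gucy1b1, its shared beta subunit, had 0 reads in every library, under the floor of 3 reads set here. Gucy1a1 had 1 read in the control and 0 FPKM in each pressure library. Gucy1a2, another alpha subunit, was at or below 0.0833 FPKM in every library. Of the cGMP list 4 genes were measured, 1 was lower, 0 were higher and the median was -0.07. Prkg2, the membrane-bound cGMP-dependent kinase, fell from 4.14 FPKM to a range of 1.10 to 1.53 FPKM. Vasp, a substrate of the cGMP kinases and the most abundant gene here, stood at 40.5 FPKM without pressure against 24.7 to 27.8 FPKM with it. Of the genes that remove nitric oxide or nitrosothiols 6 were measured, 0 passed the rule in 1 direction at all 4 pressures, and the median was -0.43. Txn1 (thioredoxin), the most abundant, stood at 523 FPKM without pressure against 222 to 265 FPKM with it, with a log2 difference nearest to 0 of -0.98.

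Among signals that induce Nos2, 2 of 21 measured genes passed the rule upward and 2 downward at all 4 pressures, and the median was -0.29. Tlr2, a receptor of bacterial lipoproteins, fell from 48.7 FPKM to a range of 16.5 to 17.5 FPKM. In the other direction Tlr4, the receptor of lipopolysaccharide, rose from 5.12 FPKM to a range of 11.8 to 13.7 FPKM. Hif1a, the hypoxia-regulated factor, rose from 63.3 FPKM to a range of 128 to 149 FPKM and was the most abundant gene of the list in each pressure library. In the control the most abundant was Tnfrsf1a, a receptor of tumour necrosis factor, at 85.0 FPKM against 117 to 122 FPKM under pressure. The cytokine genes Ifng and Il1b had 0 reads in all 5 libraries. Tnf, the other cytokine gene of the list, had 8 reads in the control and 2, 3, 7 and 0 at -80, -120, -160 and -200 mmHg. Of signals that induce arginase 1 of 8 measured genes was higher, 0 were lower and the median was 0.44. Il4ra, the receptor chain for interleukins that induce arginase in macrophages, rose from 7.53 FPKM to a range of 21.3 to 24.5 FPKM, and Cebpb, the most abundant of the list, stood at 259.8 FPKM without pressure against 276 to 342 FPKM with it.

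**Figure D4:**
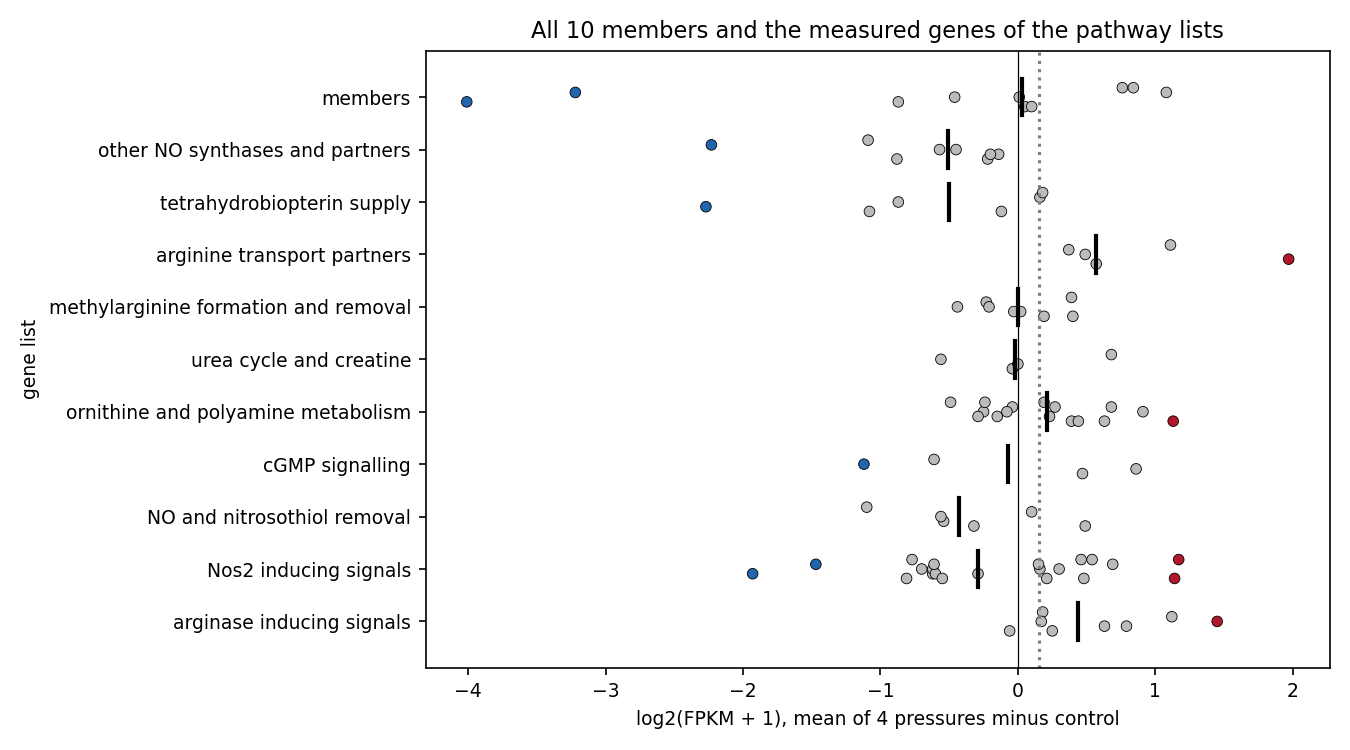
Difference on the log2(FPKM + 1) scale, mean of the 4 pressures minus control (x axis), for all 10 members and the 86 measured genes of 10 pathway lists (y axis), 1 point per gene, blue where lower and red where higher at all 4 pressures, grey otherwise. Black strokes are list medians and the dotted line is the median of all genes tested, 0.15. Nos2 and Ass1 lie farther from 0 than any gene of the other lists.

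Nos2, Nos3 and Arg1 are also known from macrophages and endothelium, so markers of those cells were read in the same libraries. The macrophage list of 16 genes summed to 31.9 FPKM without pressure against 68.8 to 76.1 FPKM with it. Of 4 measured genes 3 (Cd68, Lyz2 and Cd14) were higher and 1 (Cd74) lower at all 4 pressures, but the defining markers were near 0. Over all 12113 genes tested 6.49% were higher and 4.46% lower at all 4 pressures. The marker lists have few measured genes, so their counts describe the named genes only. Cd14 made up most of the sum, with 23.6 FPKM without pressure against 50.3 to 55.6 FPKM with it. Cd74 moved the other way, from 3.82 FPKM to a range of 0.264 to 0.700 FPKM. Ptprc and Adgre1 had 0 control reads and no more than 0.00605 and 0.0182 FPKM with pressure, and Csf1r stood at 0.0941 FPKM without pressure against 0.366 to 0.427 FPKM with it. The part of these genes in the Nos2 values was not tested. Of 12 endothelial markers 1 was measured (Plvap, higher at all 4 pressures), the sum was 1.34 FPKM without pressure against 3.91 to 6.03 FPKM with it, and Pecam1, Cdh5 and Kdr were at or below 0.487 FPKM in every library. The granulocyte list had 2 measured genes of 10. Camp and Prtn3 were higher at all 4 pressures, and the sum was 8.99 FPKM without pressure against 24.1 to 31.2 FPKM with it. Camp made up most of that sum, with 8.10 FPKM without pressure against 18.8 to 24.6 FPKM with it. Prtn3 and Plvap, at 0.596 and 0.711 FPKM in the control, met the level limit through the pressure libraries. For such genes the limit itself favours a higher call. Mpo, S100a9, Ltf and Csf3r had 0 reads in all 5 libraries. Elane, Ngp, S100a8 and Ly6g were at or below 1.06 FPKM in every library.

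Of 16 stromal markers 14 were measured, 1 of them (Ly6a) was lower and 0 higher at all 4 pressures. Over all genes tested the shares were 4.46% lower and 6.49% higher. Pdgfra, Pdgfrb and Col1a1, which mark stromal cells, stood at 44.3, 64.9 and 929.6 FPKM in the control and at no less than 63.7, 47.3 and 435 FPKM under pressure. Thy1, a surface marker used to define these cells, had 1 read in the control and 51 to 91 reads under pressure, so the control library was nearly without it.

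The genes nearest to Nos2 in profile over the 5 libraries, by Euclidean distance of the centred log2(FPKM + 1) values, were Tfpi (distance 0.15), Postn (0.19) and Mme (0.19). Tfpi stood at 20.8 FPKM without pressure against 0.210 to 0.312 FPKM with it, and Postn at 16.8 against 0.104 to 0.173 FPKM. Mme stood at 32.4 FPKM without pressure against 0.715 to 1.03 FPKM with it. The nearest to Ass1 were Lgi2 (0.11), Tnfrsf9 (0.11) and Mccc2 (0.13). Tnfrsf9 stood at 8.89 FPKM without pressure against 0.102 to 0.199 FPKM with it. Lgi2 went from 7.93 FPKM to at most 0.0276 FPKM, and Mccc2 from 9.10 FPKM to at most 0.0643 FPKM. With 1 control and 4 similar pressure libraries, this likeness describes a common drop from the control. The scale shrinks differences of low genes, so equal distances can hide unequal folds.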

How the data were processed

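RNA-seq of 5 BMSC libraries, 1 per pressure, was available as 1 table of FPKM values that the authors deposited. The tools named in the submitters' processing notes are featureCounts 1.5.0-p3, HISAT2 and SAMtools, with rn6, a rat build. The 55401 IDs of the table are mouse Ensembl IDs. Filters, strand setting and annotation are not given in the sources used here. Symbols, positions and exon lengths came from GENCODE M21 (GRCm38), in which 55141 IDs matched.

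FPKM times exon length gave whole reads (tolerance 0.001) for 98.8% of genes. The Nos2 ID has another version than in M21, and its length of 4439 nt was solved from the values (tolerance 0.01 reads). Recovered reads served for Clopper-Pearson intervals of ratios, Poisson intervals of levels and the floor of 3 reads per library. All 3 cover only counting error, because PCR copies of a molecule cannot be recognised here. No count model was fitted.

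The size rule was computed over the 12113 genes that averaged 1 FPKM or more, on log2(FPKM + 1). The members and lists were chosen with earlier results of these data known. Named genes are the members, in each list up to 4 genes past the rule at all 4 pressures by size and the most abundant one, the 3 genes nearest in profile to each member past the rule at all 4 pressures, and 10 defining markers; others named were chosen after their values were seen, and 1 gene that the rule names is not reported here. Alternatives were pseudocounts of 0.1 and 5, a trimmed mean of log ratios (30% off each end), upper-quartile and quantile scaling, no filter, a mean of 5 FPKM and a 1.5-fold rule. The functions were tested on simulated reads. Columns of other samples numbered 0. Software was matplotlib 3.10.9, scipy 1.17.1, pandas 2.3.3 and numpy 2.4.6 under Python 3.11.15.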

Additional observations from a re-analysis of the deposited data

How the results depend on the processing

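Nos2 was lower at all 4 pressures under each of the 8 alternatives, and Ass1 under each but the 5 FPKM limit, where its mean of 2.72 FPKM took it out and 1 member was left. No filter and the 1.5-fold rule are looser than the main rule and could not undo any call. Of the members, Slc7a1 alone was higher at all 4 pressures with a pseudocount of 0.1 (1 member), and with the 1.5-fold rule Slc7a1, Slc7a2 and Ddah1 were (3 members). Pathway genes higher at all 4 pressures numbered 8 with a pseudocount of 0.1, 2 with a pseudocount of 5, 2 with the trimmed mean and 12 with the 1.5-fold rule, in place of 5. Those lower numbered 8 with the trimmed mean and 15 with the 1.5-fold rule, in place of 5. Slc7a3 and Il4ra were higher, and Cav1, Gchfr and Tlr2 lower, under each of the 8. Differences between pressures past the size rule numbered 0 under all 8 alternatives, counted over the members that met the level limit of each. Over all genes meeting the limit, 786 (6.49%) were higher and 540 (4.46%) lower at all 4 pressures. This background became 1384 (11.4%) and 670 (5.53%) with a pseudocount of 0.1, 212 (1.75%) and 330 (2.72%) with a pseudocount of 5, and 2151 (17.8%) and 1263 (10.4%) with the 1.5-fold rule. It was 581 (4.87%) and 690 (5.78%) with the trimmed mean, 580 (4.79%) and 571 (4.71%) with quantile normalization, and 792 (6.53%) and 530 (4.37%) with upper-quartile scaling. With no filter it was 787 (1.42%) and 663 (1.20%), and with the 5 FPKM limit 476 (6.34%) and 353 (4.70%). The counts of members and pathway genes above are to be read against these shares. The mean log2 difference of Nos2 lay between -4.93 and -2.53 and that of Ass1 between -4.61 and -1.65 over the pseudocounts. Under quantile normalization Gch1 turned from 0.10 to -0.10, Arg1 from 0.05 to -0.01 and Nos3 from 0.01 to -0.04. Arg2 was lower at all 4 pressures as well with a pseudocount of 0.1 and with the 1.5-fold rule. No paired analysis was possible because each condition has 1 library, and no library can be left out of a condition. Depth limits Nos3 and Arg1, with at most 7 reads in a library.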
